A study of Mus musculus with 2 samples.

Results

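The carriers described here are 10 genes for amino acid transporters of the plasma membrane, chosen by symbol from the 27998 genes listed in both libraries. They fall into 4 classes by cargo: Slc7a1 and Slc7a3 for cationic amino acids, Slc7a5 and its heavy chain Slc3a2 for large neutral amino acids, Slc7a11 for cystine, and Slc1a4, Slc1a5, Slc38a1, Slc38a2 and Slc6a9 for small neutral amino acids. Single-cell RNA was counted in 1 WT and 1 cKO library of LSK cells (Lin- Sca-1+ c-Kit+), the bone marrow fraction rich in haematopoietic stem and progenitor cells, from 3-month-old mice. The labels give Trmt6 fl/fl for WT, and Trmt6 fl/fl with MX1-cre, an interferon-inducible recombinase that acts in blood cells and in other tissues, for cKO. Trmt6 encodes the partner of Trmt61a in the tRNA methyltransferase that makes m1A. The study describes the recombinase and the inducer pIpC in both genotypes, on a C57BL/6 background, and names the control Trmt6 +/+. The sources thus differ on whether the WT cells carried Cre and on whether they carried the fl alleles. The number of mice behind each library is not given in the sources used here. With 1 library per genotype no difference below has a replicate check: the 95% intervals given cover no more than counting error, and genotype and library cannot be told apart.

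Amino acid carriers set which amino acids a cell can take up. The heavy chain encoded by Slc3a2 (CD98hc, 4F2hc) brings a light chain to the membrane: with Slc7a5 (LAT1) it exchanges leucine and other large neutral amino acids, and with Slc7a11 (xCT) it imports cystine, the source of cysteine for glutathione, in exchange for glutamate. Several of these genes are textbook targets of ATF4, the transcription factor of the integrated stress response, which is translated when amino acids run short and binds with C/EBP partners at a composite element.

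Both libraries held RNA of the sort markers. The WT library had 8869 barcodes with 47991455 UMIs and the cKO library 9260 barcodes with 98323201 UMIs, of which 24 barcodes were shared. Filters and doublet scores left 8151 cells of the WT and 8485 of the cKO library, with a median of 4128 and 10025 UMIs. The sort markers were present in both but at different levels, Kit at 63.5 CPM (UMIs per 1000000 UMIs) in WT and 21.5 CPM in cKO, and Ly6a, which encodes Sca-1, at 34.8 and 142 CPM. Trmt6 itself was at 63.2 CPM in WT but 50.3 CPM in cKO (log2 ratio -0.33, -0.40 to -0.26), and 3′ counts do not show whether an internal exon was lost. The part of these library differences in the carrier levels was not tested, except as stated beside a result.

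In the GRCm38 genome the 10 genes lie apart on 9 chromosomes, as annotated in GENCODE M21. Slc7a1 spans chr5:148327410-148399904, Slc7a3 chrX:101079210-101086020, Slc7a5 chr8:121881150-121907694, Slc3a2 chr19:8706882-8723369 and Slc7a11 chr3:49892526-50443614. Slc1a4 spans chr11:20302180-20332713, Slc1a5 chr7:16781340-16798274 and Slc6a9 chr4:117834506-117875198. Slc38a1 (chr15:96571418-96642913) and Slc38a2 (chr15:96687392-96699730) are neighbours on the minus strand. Slc7a5 overlaps Gm20388, Slc7a11 overlaps Gm37854, and Slc6a9 overlaps Ccdc24 and B4galt2, all on the opposite strand. Slc7a11 also overlaps Gm37692 and Gm37498 on its own strand, which are not among the genes of the matrices.

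RefSeq promoters (GRCm38.p6, 250 bases before to 50 bases after a start) were at hand for 6 of the 10 genes. The 4 below are printed 5′ to 3′ in the sense of the gene. They belong to carriers that were far higher in cKO (Slc7a11, Slc1a4), moderately higher (Slc3a2) and not higher (Slc38a2). The windows of Slc7a1, and of Slc6a9, which was also far higher in cKO (log2 ratio 4.90), are not printed. Capitals mark TGATGNAA, the core of the C/EBP-ATF composite element, on either strand.
Slc7a11 promoter, chr3:50443564-50443863, minus strand: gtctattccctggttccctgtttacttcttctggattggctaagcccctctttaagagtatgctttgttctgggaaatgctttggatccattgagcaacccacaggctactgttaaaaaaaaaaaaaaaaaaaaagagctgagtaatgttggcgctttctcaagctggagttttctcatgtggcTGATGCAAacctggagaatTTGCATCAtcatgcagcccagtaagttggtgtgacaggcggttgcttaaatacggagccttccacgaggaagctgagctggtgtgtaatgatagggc
Slc1a4 promoter, chr11:20332664-20332963, minus strand: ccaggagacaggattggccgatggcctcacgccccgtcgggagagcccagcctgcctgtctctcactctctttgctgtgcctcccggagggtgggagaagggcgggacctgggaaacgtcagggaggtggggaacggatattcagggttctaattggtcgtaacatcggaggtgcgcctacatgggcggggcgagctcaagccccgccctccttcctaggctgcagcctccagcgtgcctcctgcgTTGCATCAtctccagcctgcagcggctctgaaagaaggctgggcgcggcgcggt
Slc3a2 promoter, chr19:8713848-8714147, minus strand: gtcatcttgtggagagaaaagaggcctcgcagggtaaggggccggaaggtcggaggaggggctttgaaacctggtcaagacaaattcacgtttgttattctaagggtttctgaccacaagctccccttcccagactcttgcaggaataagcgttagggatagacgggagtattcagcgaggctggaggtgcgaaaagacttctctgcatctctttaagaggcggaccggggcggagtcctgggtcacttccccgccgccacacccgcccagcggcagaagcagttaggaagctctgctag
Slc38a2 promoter, chr15:96699679-96699978, minus strand: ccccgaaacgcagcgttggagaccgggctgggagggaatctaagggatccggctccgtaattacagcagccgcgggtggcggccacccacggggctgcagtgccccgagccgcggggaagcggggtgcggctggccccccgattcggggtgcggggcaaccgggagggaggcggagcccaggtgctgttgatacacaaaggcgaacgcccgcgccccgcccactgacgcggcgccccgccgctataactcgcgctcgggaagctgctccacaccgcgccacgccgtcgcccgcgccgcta
TGATGNAA was found in 3.97% of the 32851 RefSeq promoters. Slc7a11 held it 2 times, at positions -66 to -59 and, on the other strand, -47 to -40 from the start, and Slc1a4 held it once, on the other strand, at -4 to 4 across the start. These letters were not in the windows of Slc3a2, Slc38a2, Slc7a1 or Slc6a9. The windows of Slc3a2 and Slc6a9 lie inside the gene spans given above, so the outermost 5′ ends of these genes were not scanned. A second motif, the antioxidant response element core TGACNNNGC, was in 12.4% of promoters and in windows of Slc7a1, Slc38a2 and Slc6a9, and overlapped no TGATGNAA in them. A match of letters is a description of the window and was not tested for binding.

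Over all kept cells, 8 of the 10 carriers were at least 2-fold higher in cKO and 0 were 2-fold lower, where 2.88% of the 9157 genes that reached 5 CPM were 2-fold higher and 5.2% were 2-fold lower. The median log2 ratio (cKO over WT) of the 10 carriers was 1.87, beside -0.07 over all 9157 genes. All 10 reached the minimum of 5 CPM, but 4 of them (Slc7a3, Slc7a11, Slc1a4 and Slc6a9) did so only in cKO and so had to differ. Of the 6 that reached it in WT too, 4 were past 2-fold (Slc7a1, Slc7a5, Slc3a2 and Slc1a5) and Slc38a1 and Slc38a2 were not. UMIs count molecules by their 3′ ends, so the CPM of different carriers can be set side by side without their lengths.

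**Figure D1:**
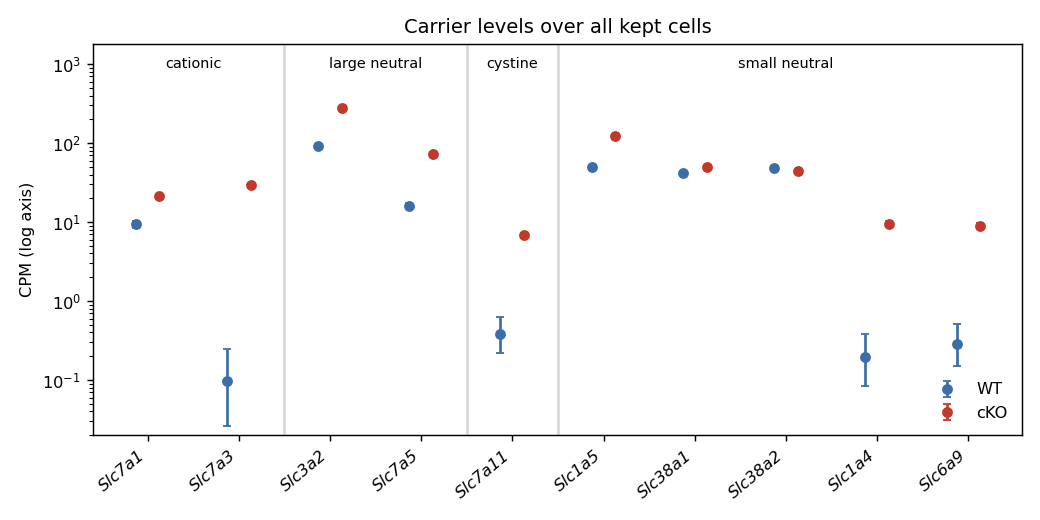
Level of each carrier over all kept cells of the WT (blue) and cKO (red) library, in CPM on a log axis, with exact Poisson 95% intervals, grouped by cargo. Slc7a3, Slc7a11, Slc1a4 and Slc6a9 lie under 1 CPM in WT and between 6.78 and 29.5 CPM in cKO, while Slc38a1 and Slc38a2 lie close together in both.

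Among the cationic carriers, Slc7a3 (CAT-3) was nearly absent in WT and above Slc7a1 in cKO. Its level was 0.0963 CPM in WT, from 4 UMIs, and 29.5 CPM in cKO, from 2568 UMIs. The log2 ratio of 8.09 (6.90 to 10.14) was the 4th highest of the 9157 genes. Slc7a1 (CAT-1), the widely expressed arginine and lysine carrier, was at 9.32 CPM in WT but 21.5 CPM in cKO (log2 ratio 1.20, 1.05 to 1.37). Summed, the cationic pair was at 9.42 CPM in WT against 51 CPM in cKO. Slc7a1 thus made up nearly all of the pair in WT, and Slc7a3 was above it in cKO.

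The large neutral pair was higher in cKO in both of its chains, and Slc3a2 was the most abundant of the 10 carriers in each library. Slc3a2, the heavy chain, was at 92.8 CPM in WT but 277 CPM in cKO (log2 ratio 1.58, 1.53 to 1.63). Slc7a5, its light chain LAT1, was at 16.2 CPM in WT but 72 CPM in cKO (log2 ratio 2.15, 2.04 to 2.27). The pair summed to 109 CPM in WT and to 349 CPM in cKO, at a log2 ratio of 1.68 (1.64 to 1.73).

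The cystine carrier Slc7a11 was close to the detection floor in WT, at 0.385 CPM from 16 UMIs, and stood at 6.78 CPM from 590 UMIs in cKO. Its log2 ratio was 4.10 (3.43 to 4.95), the 20th highest. When every cell was given the same weight the ratio was 2.83, a smaller difference in the same direction. Of the 16 WT UMIs, 3 were in 60 neutrophil-gated cells, at 6.82 CPM there, and the cKO library had no cell in that gate. In the ungated cells, with 3 WT UMIs, the log2 ratio was 5.42 (4.08 to 7.92).

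The small neutral carriers split. Slc1a4 (ASCT1), which carries alanine, serine, cysteine and threonine, was at 0.193 CPM (8 UMIs) in WT but 9.49 CPM (825 UMIs) in cKO (log2 ratio 5.54, 4.64 to 6.84). Slc6a9 (GLYT1), the glycine carrier, was at 0.289 CPM (12 UMIs) in WT but 8.96 CPM (779 UMIs) in cKO (log2 ratio 4.90, 4.14 to 5.91). Both were thus barely counted in WT, and they ranked 13th and 16th of all genes tested. Slc1a5 (ASCT2), the main glutamine exchanger of many dividing cells, was at 49.6 CPM in WT but 123 CPM in cKO (log2 ratio 1.31, 1.24 to 1.38).

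The system A carriers, which take up alanine and glutamine with sodium, differed little. Slc38a1 (SNAT1) was at 42.4 CPM in WT but 49.7 CPM in cKO (log2 ratio 0.23, 0.15 to 0.31). Slc38a2 (SNAT2), also a known ATF4 target, was at 49 CPM in WT but 44.8 CPM in cKO (log2 ratio -0.13, -0.21 to -0.05). Against the median of all genes, -0.07, the value for Slc38a2 was close to that of a typical gene, and it was -0.03 with TMM factors, where that median was 0.03. With thinned cells it was -0.34 and with cells scaled before averaging -0.30, where the medians were -0.09 and -0.10. As a class the 5 small neutral carriers summed to 142 CPM in WT and to 236 CPM in cKO, at a log2 ratio of 0.74 (0.69 to 0.78), the smallest of the 4 classes.

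Because the carriers differed by unlike amounts, the makeup of the pool changed. The 10 carriers together were at 260 CPM in WT but 643 CPM in cKO (log2 ratio 1.30). Slc38a2 was 18.8% of carrier UMIs in WT and 6.96% in cKO, and Slc38a1 was 16.3% and 7.73%. In the other direction, Slc3a2 was 35.6% and 43.1%, Slc7a5 was 6.22% and 11.2%, and Slc7a3 was 0.037% and 4.59%. Slc1a5 was 19.1% in both. The system A pair was thus a smaller, and the heavy chain, LAT1 and CAT-3 a larger, part of the pool in cKO.

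UMIs of the heavy chain outnumbered those of the light chains it pairs with (Slc7a5, Slc7a6, Slc7a7, Slc7a8, Slc7a10 and Slc7a11). There were 3.33 (3.11 to 3.56) Slc3a2 UMIs per light chain UMI in WT and 2.96 (2.89 to 3.04) in cKO. With only Slc7a5 and Slc7a11 as partners the values were 5.6 (5.16 to 6.08) and 3.52 (3.42 to 3.61), a larger gap in the same direction. Slc7a5 was 58% of light chain UMIs in WT and 77% in cKO, and Slc7a11 was 1.38% and 7.26%. The other light chains took less: Slc7a6 (y+LAT2) was 24.4% in WT and 10.6% in cKO, and Slc7a8 (LAT2) was 9.93% and 2.19%. The gap was widest among the larger gates in LMPP-gated cells, with 4.73 (3.58 to 6.32) heavy chain UMIs per light chain UMI in WT and 2.4 (1.95 to 2.97) in cKO, whereas the 2.64 (2.37 to 2.96) and 2.57 (2.15 to 3.09) of GMP-gated cells overlapped. In the erythroid gate, with 2.13 (1.12 to 4.24) and 2.91 (2.32 to 3.66), and the T/NK/ILC gate, with 2.43 (1.27 to 4.9) and 3.16 (2.43 to 4.14), the cKO value was the higher, within overlapping intervals.

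Cells were then gated by lineage markers, counted after each cell was thinned to 2000 UMIs, with 2 or more markers of a list needed. In both libraries 9 marker gates and the ungated cells had 20 or more cells. The gates held different shares of the libraries: 7.1% of WT and 10.2% of cKO cells were in the stem cell (HSC) gate, 9.74% and 1.9% in the lymphoid-primed (LMPP) gate, and 17.8% and 1.19% in the granulocyte-monocyte (GMP) gate. The ungated cells were 57.8% and 80.7%. Most gated cells sat at the minimum of 2 markers (78.9% of WT and 74.6% of cKO cells in the HSC gate), so gates are marker classes and not sorted types. Mature cells differed too, with 60 WT and 0 cKO cells in the neutrophil gate and 3 WT and 69 cKO cells in the plasma cell gate. All 8 neutrophil markers had UMIs in WT, summing to 5434 CPM, and 7 had UMIs in cKO, summing to 8.05 CPM. The 6 plasma cell markers summed to 81.1 and 585 CPM, and the 9 B cell markers to 78.9 and 102 CPM. Without the neutrophil-, plasma- and B-gated cells, the same number of carriers, 8, was 2-fold higher in cKO.

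Higher levels in cKO were found in most gates. Of 72 pairs of carrier and gate with 10 UMIs and 5 CPM in a library, 46 were 2-fold or more higher in cKO with an interval above 0, and 0 were lower. Of the 43 pairs that reached the minimum in WT, 23 were higher. With cKO gates weighted to the WT mix, 8 carriers were past 2-fold. Carriers were higher in 6 of 9 pairs in the HSC gate, where 2.92% of all genes tested were, in 7 of 9 in the LMPP gate, beside 3.07%, and in 6 of 9 in the GMP gate, beside 3.39%. The megakaryocyte gate gave 6 of 8 (3.06% of all genes), the erythroid gate 4 of 8 (4.41%) and the T/NK/ILC gate 5 of 7 (3.44%). In the ungated cells it was 8 of 10, beside 2.59%. Small gates gave fewer: 1 of 6 in the B gate (2.38%), with 22 WT cells, 1 of 2 in the DC/monocyte gate (5.14%) and 2 of 4 in the basophil/mast gate (3.73%).

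**Figure D2:**
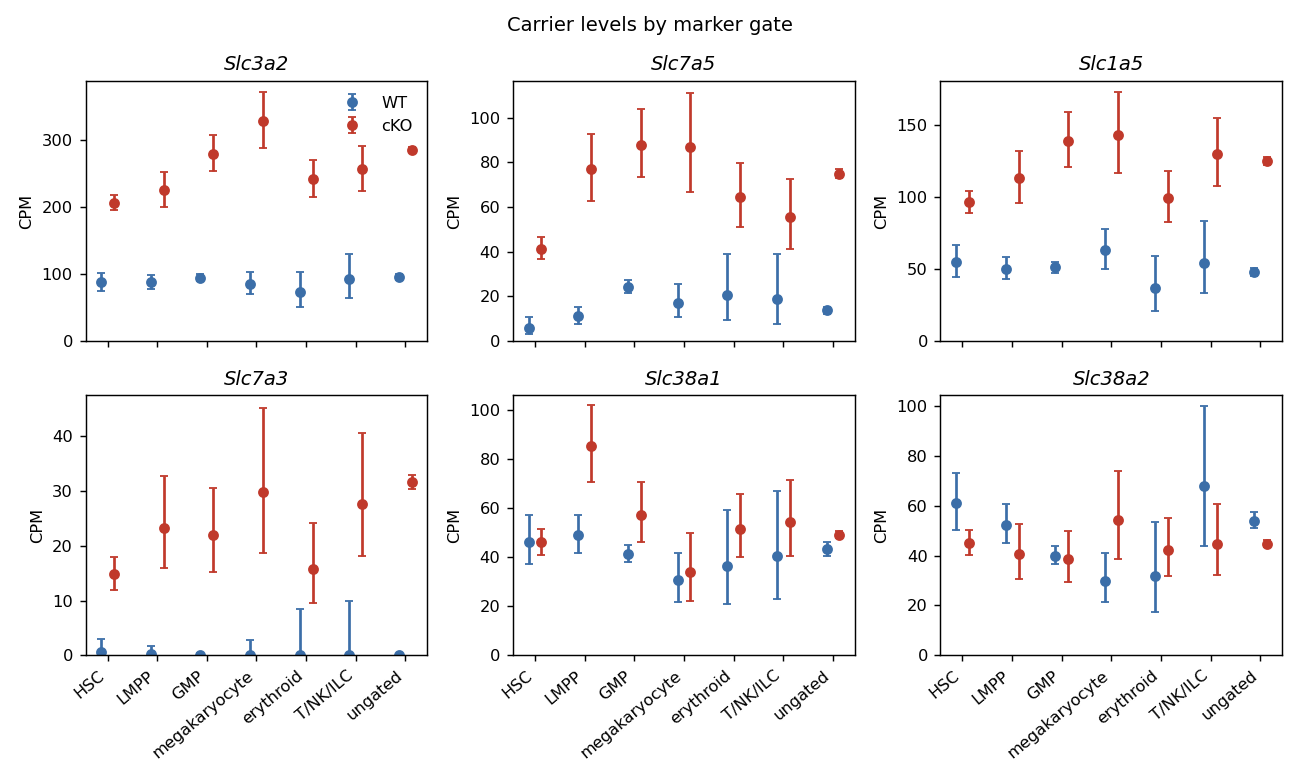
Level in CPM (vertical axes, from 0) of 6 carriers in the 6 larger marker gates and the ungated cells (horizontal axis), in WT (blue) and cKO (red), with exact Poisson 95% intervals. Slc3a2, Slc7a5, Slc1a5 and Slc7a3 lie higher in cKO in each gate shown, with the HSC gate the lowest cKO gate shown for each of these 4, and the WT and cKO intervals of Slc38a1 and Slc38a2 overlap in most gates.

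Slc7a5 and Slc3a2 were higher in the most gates. Slc7a5 was higher in 9 of 9 gates tested, from 5.93 CPM in WT to 41.4 CPM in cKO in the HSC gate, a log2 ratio of 2.74 (1.94 to 3.82), and from 24.2 to 87.7 CPM in the GMP gate, a log2 ratio of 1.86 (1.55 to 2.15). In the B gate it had 0 WT UMIs and 73.2 CPM in cKO, at least 2.78-fold higher when WT is set at 3 counts. Slc3a2 was higher in 9 of 10, with log2 ratios of 1.23 in the HSC gate (87.3 CPM in WT, 206 CPM in cKO), 1.36 (1.13 to 1.60) in LMPP, 1.56 (1.40 to 1.72) in GMP and 1.94 (1.61 to 2.28) in megakaryocyte. In the B gate its log2 ratio was 0.69 (0.00 to 1.55), short of the fold.

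Slc7a3 had UMIs in each of the 9 marker gates of cKO. It was higher in 7 of 8 gates tested, but it reached the minimums there through cKO alone, with 0 or 1 WT UMI in each, so the filter nearly set this count. In the megakaryocyte gate it had 0 WT UMIs and 29.9 CPM in cKO, at least 13-fold higher, and in the HSC gate 1 WT UMI stood against 14.8 CPM, a log2 ratio of 4.20 (2.27 to 10.09). Slc1a4 was higher in 5 of 6 gates and Slc6a9 in 4 of 4, and both also reached the minimums through cKO alone in each of them. In the HSC gate Slc1a4 had 0 WT UMIs and 7.02 CPM in cKO (at least 4.34-fold higher) and Slc6a9 had 0 WT UMIs and 7.17 CPM (at least 4.43-fold). Slc7a11 reached both minimums in the ungated cells alone, where it was higher. In the HSC gate it had 31 UMIs in cKO but stood at 4.54 CPM.

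Slc1a5 and Slc7a1 crossed the fold in some gates. Slc1a5 was higher in 6 of 10: its log2 ratio was 1.45 (1.22 to 1.67) in GMP and 1.17 (0.84 to 1.49) in LMPP, but 0.80 (0.51 to 1.12) in HSC. Slc7a1 was higher in 5 of 7, at 1.20 (0.38 to 2.25) in HSC and 0.80 (0.18 to 1.35) in GMP. At equal depth its GMP value turned in direction, with 0.0205 UMIs per thinned cell in WT and 0.01 in cKO, from 29 and 1 positive cells. Neither system A carrier passed the fold in any gate, Slc38a1 in 0 of 8 and Slc38a2 in 0 of 9. The highest log2 ratio of Slc38a1 was 0.80 (0.44 to 1.15) in the LMPP gate, from 49.1 CPM in WT to 85.5 CPM in cKO. Slc38a2 was at 60.9 CPM in WT against 45.1 CPM in cKO in the HSC gate, a log2 ratio of -0.44 (-0.75 to -0.11), and at 29.9 and 54.3 CPM in the megakaryocyte gate, 0.86 (0.19 to 1.53). The megakaryocyte value turned in direction at equal depth, with 0.0691 UMIs per thinned cell in WT and 0.0606 in cKO, from 19 and 3 positive cells.

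Within the cKO library the HSC gate had less of the carriers than the ungated cells. Slc7a3 was at 14.8 CPM in HSC-gated and 31.7 CPM in ungated cKO cells, a log2 ratio of -1.09 (-1.40 to -0.81). Slc7a5 was at 41.4 and 74.8 CPM (-0.85, -1.03 to -0.68), and Slc3a2 at 206 and 285 CPM (-0.47, -0.55 to -0.39). In cKO 7 of 10 carriers had intervals below 0 in this contrast, beside 16.4% of all genes that are no gate marker, and 0 above. Of the 6 carriers that reached 5 CPM in WT, 4 were below 0. In WT 1 carrier, beside 11.5% of those genes, had an interval below 0 (Slc7a5, 5.93 and 13.7 CPM, -1.14, -2.23 to -0.34) and 1 above (Slc7a11, from 3 UMIs in each). The share of all genes above 0 was not taken. Slc7a3, Slc7a11, Slc1a4 and Slc6a9 had 3 or fewer UMIs in the WT HSC gate and 11 or fewer in ungated WT cells. Counts that low could hardly give an interval below 0, so the WT and cKO numbers cannot be set side by side. In WT, Slc3a2 was at 87.3 and 94.9 CPM in the same cells (-0.12, -0.36 to 0.11). Stress list transcripts were also fewer in HSC-gated than ungated cKO cells, 5.86 and 7.88 per 2000 UMIs, and the cells were shallower, with a median of 7614 and 10475.5 UMIs. The part of depth in this contrast was not tested.

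Shares of cells with a UMI were compared after thinning to 2000 UMIs, in 7946 WT and 8380 cKO cells. Slc3a2 was found in 16.6% (15.8 to 17.5) of WT and 37.7% (36.7 to 38.7) of cKO cells, Slc1a5 in 9.21% and 20.4%, and Slc7a5 in 2.71% and 11.6%. Slc7a3 was found in 0.0378% (0.00779 to 0.11) and 5.1% (4.63 to 5.59) of cells, where the unthinned shares, which also hold the difference in depth, were 0.0491% and 22.2%. Slc7a1 was in 1.72% and 4.05%, Slc1a4 in 0.0252% and 1.53%, Slc6a9 in 0.0503% and 1.44%, and Slc7a11 in 0.0881% and 1.13%. For 8 of 10 carriers the interval of cKO lay above that of WT, which held for 21.4% of all genes tested. Of the 6 carriers that reached 5 CPM in WT it held for 4, and the other 4, Slc7a3, Slc7a11, Slc1a4 and Slc6a9, passed that minimum through cKO alone. Slc38a1 (8.52% and 9.31%) was not among them, and neither was Slc38a2, whose share was lower in cKO, at 8.34% (7.76 to 8.95) against 10.3% (9.66 to 11).

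A cell rarely gave more than 1 UMI of a carrier at this depth. Among cells with Slc3a2, the mean was 1.11 UMIs in WT and 1.36 in cKO, and 1.66% of WT and 10.8% of cKO cells had 2 or more. For Slc7a3 the mean was 1.04 UMIs in positive cKO cells, at 0.0532 UMIs per cKO cell. At so low a level a mean near 1 cannot tell a rise in most cells from a rise in few. The share of cells with none of the 10 carriers was 59.2% in WT and 34.6% in cKO, and 0.0252% and 1.28% of cells had 4 or more of them. No gate is a cell type known to lack these carriers. Free RNA gives UMIs in any droplet, and its part in these shares was not tested: the lowest Slc7a3 share of a marker gate in cKO was 1.18%, in the B gate, and the ungated cells were at 5.65%.

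Carrier levels followed the transcripts of the integrated stress response in cKO cells. A list of 28 genes without any carrier (Atf4, Trib3, Asns, Chac1, Psat1, aminoacyl-tRNA synthetases and others) had a median log2 ratio of 1.61 over all cells, with 22 genes 2-fold higher and 1 lower. Asns, which makes asparagine, was at 11 CPM in WT against 197 CPM in cKO, Trib3 at 2.24 and 159 CPM, and Atf4 at 67.4 and 215 CPM. The lower one was Atf3, at 9.95 and 1.46 CPM. The median cell had 3 UMIs of the list per 2000 in WT and 7 in cKO. Cells were binned by this number, in bins of 0 to 4, 5 to 9 and 10 to 19, the last with 20 cells in WT and not used there.

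**Figure D3:**
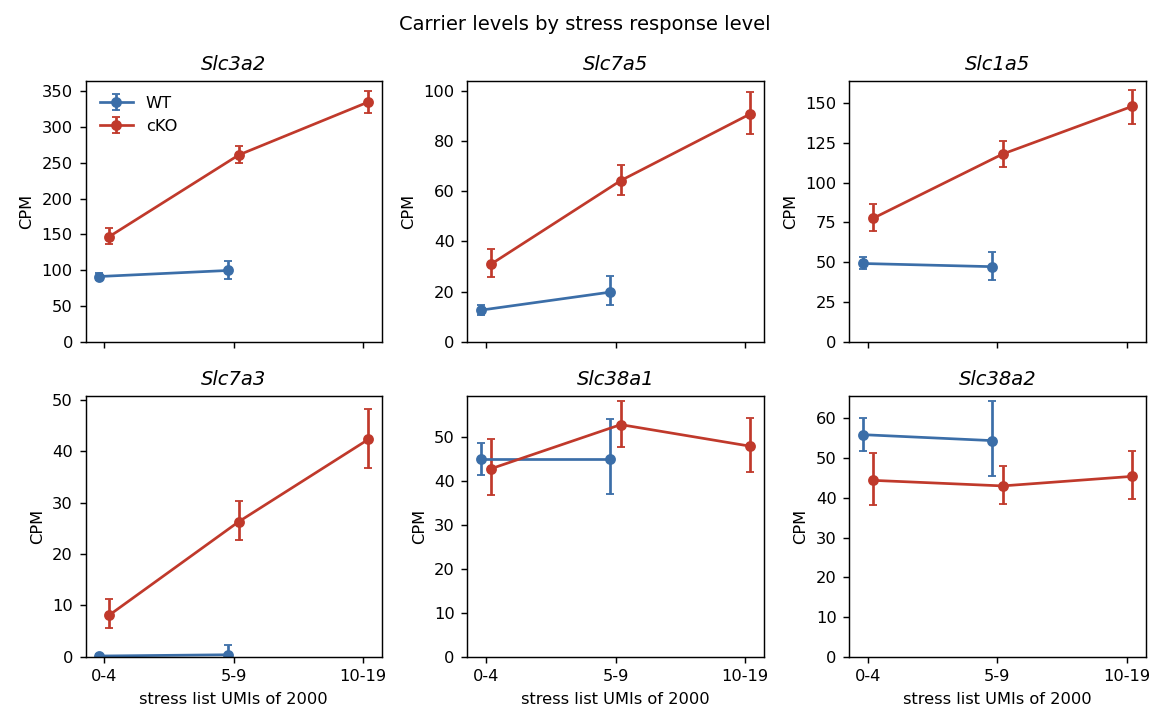
Level in CPM (vertical axes, from 0) of 6 carriers in cells binned by their UMIs of 28 stress response genes after thinning to 2000 UMIs (horizontal axis), in WT (blue) and cKO (red), with exact Poisson 95% intervals. In cKO Slc3a2, Slc7a5, Slc1a5 and Slc7a3 climb from the first to the last bin, and Slc38a1 and Slc38a2 stay within overlapping intervals.

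Across these 3 bins in cKO, Slc7a3 was at 8.12, 26.3 and 42.3 CPM. Slc7a5 was at 31, 64.3 and 90.9 CPM, and Slc3a2 at 147, 261 and 335 CPM. For 8 of 10 carriers the interval of the last bin lay above that of the first, which held for 8.86% of all genes outside the list. Slc38a2, at 44.4, 43 and 45.4 CPM, and Slc38a1, at 42.7, 52.7 and 47.8 CPM, were the exceptions, so that it held for 4 of the 6 carriers that reached the minimum in WT. The bins share libraries, and a cell's list UMIs and carrier UMIs come from the same 2000, so this is a description. Within the ungated cells alone the number was also 8.

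Cells in the same bin still differed between the libraries. In the bin of 5 to 9, Slc7a3 was at 0.397 CPM in WT (1 UMI) and 26.3 CPM in cKO, Slc7a5 at 19.8 (14.7 to 26.2) and 64.3 (58.7 to 70.4) CPM, and Slc3a2 at 99.6 (87.7 to 113) and 261 (250 to 273) CPM. The intervals were apart with cKO above WT for 8 of 10 carriers in this bin, beside 10.4% of all genes outside the list, and for 6 of 10 in the bin of 0 to 4, beside 13.2%. Of the 6 carriers that reached the minimum in WT they were 4 and 3. The other 4, which passed it through cKO alone, had 0 or 1 WT UMI each in the bin of 5 to 9. Within WT, 1 of 10 carriers had the interval of the 5 to 9 bin above that of the 0 to 4 bin, beside 1.76% of all genes outside the list. It was Slc7a5, at 12.6 CPM in the lower and 19.8 CPM in the higher bin, and the limits were close (14.66 and 14.73 CPM). The bins do not match the cells fully: the mean number of list UMIs in the 5 to 9 bin was 5.81 in WT and 7.01 in cKO. Among cells with 5 list UMIs, 680 in WT and 694 in cKO, Slc3a2 was at 99.3 (83.2 to 117) and 221 (197 to 247) CPM, Slc7a5 at 21.3 (14.3 to 30.6) and 46.8 (36.1 to 59.7) CPM, and Slc1a5 at 37.5 (27.9 to 49.3) and 101 (84.8 to 119) CPM. The intervals were apart with cKO above for 6 of 10 carriers in these cells, beside 4.67% of all genes outside the list. Of these 6, Slc7a3 had 1 and Slc1a4 and Slc6a9 had 0 WT UMIs, which leaves 3 of the 6 carriers that reached the minimum in WT. In cells with 3 list UMIs it was 4 of 10, beside 5.99%, and in cells with 6 it was 5 of 10, beside 3.66%, of which 3 and 4 had reached the minimum in WT. Equal numbers do not mean the same genes of the list.

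Higher carrier levels in cKO were found both in dividing and in other cells. Cells with 4 or more of 12 mitotic genes were 23.6% of WT and 18.1% of cKO cells. In mitotic cells the log2 ratio (cKO over WT) was 1.99 (1.56 to 2.45) for Slc7a5, 1.56 (1.37 to 1.75) for Slc3a2 and 1.35 (1.06 to 1.65) for Slc1a5, and in cells with 1 mitotic gene or fewer it was 2.32 (2.04 to 2.61), 1.37 (1.26 to 1.48) and 1.21 (1.07 to 1.36). In mitotic cells 8 of 10 carriers were 2-fold higher in cKO with an interval above 0, beside 4.03% of all genes outside the mitotic list. Of these 8, Slc7a3, Slc7a11 and Slc6a9 had 0 and Slc1a4 had 1 WT UMI. Slc1a5 was lower in mitotic than in other cells of both libraries, at 37.6 and 52.4 CPM in WT (log2 -0.48, -0.76 to -0.21) and 95.8 and 122 CPM in cKO (-0.34, -0.53 to -0.16). Slc38a2 was at 40.5 and 63 CPM in WT (-0.63, -0.90 to -0.38) and at 41.8 and 45.7 CPM in cKO (-0.12, -0.42 to 0.16). Slc7a1 was at 6.13 and 9.8 CPM in WT (-0.65, -1.40 to -0.01) and at 22.7 and 19.6 CPM in cKO (0.22, -0.20 to 0.61). Slc7a3 in cKO went the other way, at 31 CPM in mitotic and 22.8 CPM in other cells (0.44, 0.08 to 0.79). Mitotic cells had the interval below 0 for 3 of 10 carriers in WT, beside 23.7% of all genes outside the mitotic list, and for 1 in cKO, beside 14.8%. They had it above 0 for 0 of 10 in WT, beside 15%, and for 1 in cKO, beside 11.4%.

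Of the tested carriers of the other lists, 0 were 2-fold higher in cKO as scaled here, but the folate carrier Slc19a1, at 25.2 and 47.5 CPM (log2 ratio 0.91), crossed the fold at 1.01 with TMM factors, and so did the monocarboxylate carrier Slc16a1, at 12.3 and 19.8 CPM (0.68), at 1.01 with thinned cells. Of 38 other amino acid carriers of the plasma membrane, 8 reached 5 CPM, and 0 were past 2-fold in either direction, where 2.88% of all genes were higher and 5.2% lower, with a median log2 ratio of -0.29. The highest of them was Slc6a13, a GABA and taurine carrier, at 24.3 CPM in WT against 42.1 CPM in cKO (0.79, 0.69 to 0.89), and the lowest was the aromatic amino acid carrier Slc16a10, at 10.6 and 5.66 CPM (-0.90, -1.09 to -0.71). The 3 lysosomal carriers tested had a median of -0.14 and the 9 mitochondrial ones a median of 0.00, with 0 past the fold in either list. Among the 20 tested carriers of other cargo the median was 0.05, with 0 higher and 2 lower. Among the lower was Slc29a3, an intracellular nucleoside transporter, at 11.7 and 4.92 CPM (-1.25, -1.44 to -1.06).

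**Figure D4:**
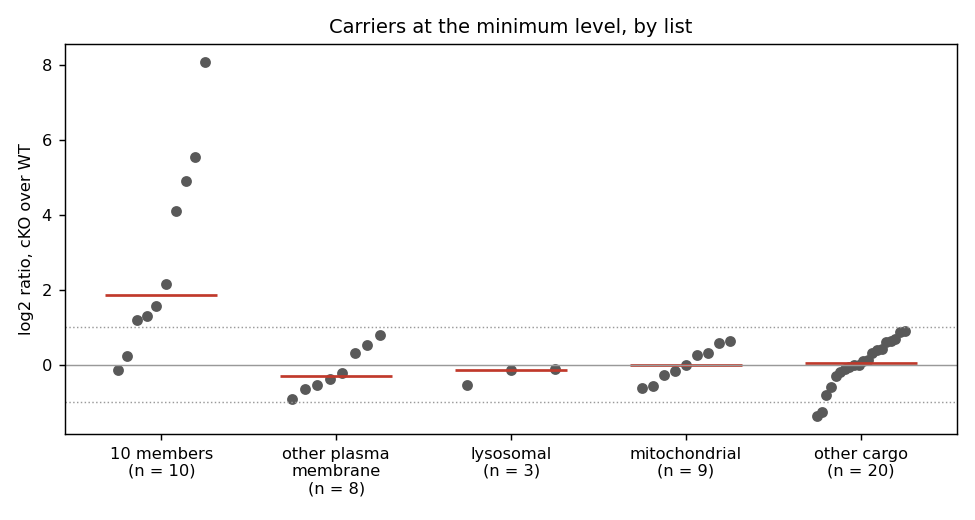
log2 ratio (cKO over WT) of each carrier at 5 CPM or more, by list, with the median of each list as a red line and dotted lines at 2-fold. The 10 members reach 8.09, and the 40 carriers of the other lists reach 0.91 at most.

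For the 7 carriers at 10 CPM or more in a library, which leaves out Slc7a11, Slc1a4 and Slc6a9, the genes with the most similar levels were looked up over 20 profiles, 10 gates in each of the 2 libraries, as Pearson correlations of log2(CPM + 10) among 5419 genes at 20 CPM or more. Over all profiles Slc7a3 was most like Trib3 (r = 0.97), Eif2s2 and Atf5, Slc3a2 most like Atf4 (0.95), and Slc7a5 most like Sars (0.93), Pycr1 and Aars. Slc7a1 was most like Slc3a2 (0.92), and Slc1a5 most like Vegfa and Slc3a2 (0.92 each). The profiles of a library share its depth and free RNA. Centred within each library, most of the closest genes were other ones: Txnl4a for Slc7a3 (0.66), R3hcc1 for Slc3a2 (0.87), Abce1 for Slc7a5 (0.84) and Bre for Slc7a1 (0.84). Atf4 was not among the 3 closest to Slc3a2 then, while Aars was among the 3 closest to Slc7a5 (0.79), Slc3a2 among those to Slc7a1 (0.80) and Vegfa the closest to Slc1a5 (0.88). Slc38a1 was most like Agpat2 over all profiles (0.84) and Fkbp3 centred (0.84), and Slc38a2 most like Rabep2 over all profiles (0.84) and Mpdu1 centred (0.85).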

How the data were processed

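Single-cell RNA was counted in 1 WT and 1 cKO library of LSK cells, named by their labelled genotype. The authors deposited UMI counts for each gene in each barcode, produced by Cell Ranger 6.0.0 from 10x 3′ libraries on the mouse genome GRCm38. The annotation release is not given in the sources used here, and the labels and the study name different versions of the kit. Reads were not analysed here.

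The limits of the study were applied: more than 200 genes, fewer than 4000 (WT) or 4500 (cKO) genes, under 10% (WT) or 5% (cKO) mitochondrial and under 5% hemoglobin UMIs. Doublets were scored against simulated ones over the 50 nearest neighbours in 20 principal components, and 612 WT and 666 cKO cells were removed. For gates, shares and bins cells were thinned to 2000 UMIs apiece, and 205 WT and 105 cKO cells below that depth were left out. A marker counted at 1 UMI, or at 3 for the GMP, neutrophil and DC/monocyte lists, whose transcripts are abundant in free RNA, and a cell with 2 or more markers of 1 list and fewer of any other joined its gate.

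Levels are CPM of summed UMIs. The log2 ratio sets cKO over WT after adding 0.5 counts to each. Exact Poisson, conditional binomial and Clopper-Pearson intervals came from scipy 1.17.1 and were tested on simulated data. With 1 library per group no test was run. A carrier was called higher at 2-fold with 5 CPM or more, and in a gate also with 10 UMIs and an interval above 0. Named genes were the 10 members, carriers of the other lists past the fold (1 is not reported here), and the 3 genes most like each of the 7 members at 10 CPM or more. Stress response genes and the extreme carriers of a list were named in addition after their values were seen, as were the contrast of HSC-gated with ungated cells and the comparisons of cells with 3, 5 or 6 list UMIs. TMM factors came from edgeR 4.0.16. The members and lists were chosen with earlier results of these data known. 1 symbol, Slc66a1, was not found.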

Additional observations from a re-analysis of the deposited data

Results flagged for a closer look

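Slc38a2 differed in direction between gates beyond counting error when all UMIs were used: its log2 ratio (cKO over WT) was 0.86 in the megakaryocyte gate, -0.44 in the HSC gate and -0.27 in the ungated cells. The difference between the gates was not tested. The megakaryocyte value rests on 39 WT and 40 cKO UMIs from 275 and 66 cells. At equal depth its direction in the megakaryocyte gate turned, with 0.0691 UMIs per thinned cell in WT and 0.0606 in cKO.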

How the results depend on the processing

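The number of carriers past 2-fold over all cells was 8 under each alternative but 1, a minimum of 10 CPM, where it was 5 because fewer carriers could be tested. Of the 10 log2 ratios none changed sign under the 10 alternatives that gave one: Slc7a3 ran from 6.92 to 8.28, Slc7a11 from 2.83 (cells scaled before averaging) to 4.68, Slc7a5 from 2.11 to 2.31, Slc38a1 from 0.13 to 0.33 and Slc38a2 from -0.34 to -0.03. The cause was not tested. The median of all genes ran from -0.10 (cells scaled) to 0.04 (median-of-ratios size factors). Carriers of other lists past the fold in either direction numbered 2 (0 higher and 2 lower), 3 with TMM or median-of-ratios factors (1 higher, Slc19a1, and 2 lower), and 4 when mitochondrial and ribosomal protein genes were left out of the total (1 higher and 3 lower, with Slc36a1, WT 4.31 and cKO 1.18 CPM, then reaching 5 CPM), 4 with thinned cells (2 higher, Slc19a1 and Slc16a1, and 2 lower), 18 with no minimum (7 higher and 11 lower) and 15 at a fold of 1.5 (8 higher and 7 lower). With 3 markers for a gate, 17 of 30 pairs of carrier and gate were higher, in 4 gates, against 46 of 72 in 10. For 3 markers neither the share of all genes nor the pairs that reached the minimum in WT were counted. The log2 ratio of heavy chain per light chain (cKO over WT) was -0.17, and -0.67 with Slc7a5 and Slc7a11 only. Leaving out neutrophil-, plasma- and B-gated cells, binning ungated cells alone and a mitotic gate at 3 genes were chosen after seeing the data, and each gave 8 carriers. No paired analysis was possible because each group has 1 library. The cKO library was the deeper, and 4 carriers rest on 16 or fewer WT UMIs, so their ratios have wide intervals.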
